A study of Mus musculus with 4 samples.

Results

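Long intergenic non-coding RNA (lincRNA) genes are transcribed, and their RNAs often spliced and polyadenylated, much like messenger RNA genes, but they are not known to encode a protein. The members described here are the 157 autosomal genes that carry the Ensembl biotype lincRNA and had a mean normalized count of at least 50 over 4 newborn mouse lungs. They were selected on the mean of their measured values, and were drawn from 3316 autosomal lincRNA genes and from 48709 genes in all. Choosing by mean level used no difference between genotypes, but a gene that is high in 1 genotype only could pass through that genotype. A further 6 lincRNA genes of the X and Y chromosomes reached the same level and were left out. RNA came from the left lung lobe of C57BL/6 mice at postnatal day 1, without treatment, 2 of them RykSL/SL and 2 wild type. Ryk encodes a Wnt receptor of the receptor tyrosine kinase family. The sources used here do not say what the SL allele changes, nor give the sex or litter of the mice. RNA of the whole lobe was measured, so fewer cells of a type and less RNA per cell cannot be told apart.

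LincRNAs work in several ways. Some are retained in the nucleus and build or populate nuclear bodies, as Neat1 does for paraspeckles and Malat1 for nuclear speckles. Some, such as Meg3 and H19, are expressed from 1 parental allele of an imprinted domain. Others are hosts from which microRNAs or small nucleolar RNAs are processed, and many lie beside the gene of a developmental transcription factor, where the act of transcription or the RNA itself can affect the neighbour. Most of the members are little described, and 124 of the 157 carry a predicted-gene, clone or RIKEN symbol.

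Ryk itself did not separate the genotypes. Mutant lungs 1 and 2 had normalized counts of 2757 and 2203 against 2528 and 2525 for wild-type lungs 1 and 2, a log2 fold change of -0.04 (standard error, SE, 0.16, limma adjusted p = 0.926). As the effect of the allele on the transcript is not given, Ryk gives no check of the labels. Library totals lay between 18658239 and 19987634. Mutant lung 1 differed from the rest in genes of the sex chromosomes, with 24836 for Xist against 7 to 23 and 56 for Ddx3y against 2197 to 3769. Of the marker lists, 2 of 9 tested heart muscle genes were lower in the mutant (Myl7 and Myl4; summed list 3716 to 3754 against 7249 to 7303). Of 7 tested lymphocyte genes 3 were lower (Ms4a1, Igkc and Ighm; summed list 328 to 454 against 1014 to 1016). None of 8 lung, 7 erythroid, 4 skeletal muscle, 2 liver and 1 neuronal markers tested passed, though both tested liver genes were above the wild type in both mutant lungs (Alb and Apoa1; summed list 82 to 84 against 23 to 27). The lung markers, from the surfactant gene Sftpc to Nkx2-1, were all abundant. The part of these markers and of mutant lung 1 in the lincRNA results was not tested.

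Of the 157 lincRNA genes, 5 differed between genotypes at a Benjamini-Hochberg adjusted p under 0.05 in limma: Gm11827, A530013C23Rik and 2810029C07Rik were higher in the mutant, and Gm32200 and Gm43042 were lower. That is 3.18% of the members, against 2.39% of the 18436 genes tested (1.47% higher and 0.917% lower), so the share lay near the background. The count changed with the lung left out. It was 24 (16 higher and 8 lower) without mutant lung 1, where 12.9% of all genes passed (6.50% higher and 6.43% lower). It was 0 without mutant lung 2, wild-type lung 1 or wild-type lung 2. Members at an unadjusted p under 0.05 then numbered 53, 13 and 12. Over all genes 0 passed in each of these fits as well, so the loss of calls was not particular to the lincRNA genes. With 1 lung left in an arm, that lung is assumed to vary like the other genotype, so the 24 calls rest on the spread of the wild-type pair alone; Malat1, Meg3, Mirg, Gdap10 and Gm12840 were among the 16. Only Gm32200 of the 5 had a mean of at least 50 in both genotypes. The other 4 entered the set through the genotype in which they were high, so their presence among the members is in part a product of the selection; 128 members had a mean of at least 50 in both genotypes.

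The sequences at the starts of these 5 genes are given because they show which bases were counted or lie just before them, where 1 start faces a coding gene and where 1 transcript is shared with other genes. Promoter windows run from 250 bases before to 50 bases after the annotated start, 5′ to 3′ on the gene's strand (RefSeq, GRCm38.p6). For A530013C23Rik (chr2:167690927-167691226, plus strand) and Gm32200 (chr1:191464999-191465298, minus strand) the capitals mark the first 50 transcribed bases. For 2810029C07Rik (chr12:111574353-111574539, minus strand) the window was shortened, and the capitals mark the 107 bases between its start and that of Mark3, which is transcribed the other way. No RefSeq promoter was matched to Gm11827 or Gm43042, for which the first 200 bases of the longest transcript (GENCODE M21, GRCm38) are shown. There the capitals mark bases within 50-base stretches that also occur in transcripts of other genes: 0 bases in Gm11827 and 184 in Gm43042.
A530013C23Rik: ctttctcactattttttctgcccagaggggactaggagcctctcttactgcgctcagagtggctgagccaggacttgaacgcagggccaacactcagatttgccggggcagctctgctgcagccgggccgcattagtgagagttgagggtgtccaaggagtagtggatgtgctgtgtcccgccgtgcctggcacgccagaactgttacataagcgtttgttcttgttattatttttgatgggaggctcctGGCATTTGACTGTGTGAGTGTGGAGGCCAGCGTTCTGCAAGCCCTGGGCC
2810029C07Rik: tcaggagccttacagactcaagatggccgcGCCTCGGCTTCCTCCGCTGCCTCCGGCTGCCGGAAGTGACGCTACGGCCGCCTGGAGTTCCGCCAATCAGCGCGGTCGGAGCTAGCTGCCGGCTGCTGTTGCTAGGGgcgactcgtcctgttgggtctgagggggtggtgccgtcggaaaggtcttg
Gm32200: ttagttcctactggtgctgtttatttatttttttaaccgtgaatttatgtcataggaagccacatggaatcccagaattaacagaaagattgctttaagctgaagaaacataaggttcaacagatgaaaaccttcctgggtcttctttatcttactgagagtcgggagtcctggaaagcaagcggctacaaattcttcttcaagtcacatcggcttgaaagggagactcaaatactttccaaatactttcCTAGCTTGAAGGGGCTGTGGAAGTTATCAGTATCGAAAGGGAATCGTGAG
Gm11827: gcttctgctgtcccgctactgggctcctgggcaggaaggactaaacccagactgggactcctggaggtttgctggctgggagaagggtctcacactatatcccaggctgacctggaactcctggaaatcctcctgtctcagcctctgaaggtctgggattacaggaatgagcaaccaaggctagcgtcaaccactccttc
Gm43042: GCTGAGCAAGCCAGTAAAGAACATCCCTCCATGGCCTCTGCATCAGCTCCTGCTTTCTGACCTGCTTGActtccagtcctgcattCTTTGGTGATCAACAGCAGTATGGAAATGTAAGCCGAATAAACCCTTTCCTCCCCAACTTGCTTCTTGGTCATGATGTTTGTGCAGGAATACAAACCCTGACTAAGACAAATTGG

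Gm11827 (ENSMUSG00000086765, chr4:11122805-11126998, plus strand) had normalized counts of 132 and 190 in mutant lungs 1 and 2 and of 22 and 26 in wild-type lungs 1 and 2. Both mutant lungs were far above both wild-type lungs (161 ± 41.0 against 24 ± 2.83, mean ± SD, n = 2 each; log2 fold change 2.68, SE 0.28, limma adjusted p = 0.0152). A530013C23Rik (ENSMUSG00000006462, chr2:167691177-167729172, plus strand) stood at 94 and 104 in the mutant against 25 and 21 in the wild type. The mutant lungs were close to each other and above both wild-type lungs (log2 fold change 2.06, SE 0.26, limma adjusted p = 0.0245). 2810029C07Rik (ENSMUSG00000096995, chr12:111572321-111574402, minus strand) stood at 135 and 157 in the mutant against 41 and 49 in the wild type. Again the groups were well apart (log2 fold change 1.68, SE 0.23, limma adjusted p = 0.0299).

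Gm32200 (ENSMUSG00000103114, chr1:191436340-191465048, minus strand), a gene with up to 6 exons, had 63 and 81 in mutant lungs 1 and 2 and 187 and 217 in wild-type lungs 1 and 2. Both mutant lungs were below both wild-type lungs (72.0 ± 12.7 against 202 ± 21.2, mean ± SD, n = 2 each; log2 fold change -1.48, SE 0.23, limma adjusted p = 0.0357). Gm43042 (ENSMUSG00000106634, chr5:59569702-59574242, minus strand) had 27 and 18 in the mutant against 84 and 102 in the wild type. It too was lower in both mutant lungs (log2 fold change -2.02, SE 0.31, limma adjusted p = 0.036), but 63.0% of its 50-base sequences, the capitals above included, also occur in transcripts of 246 other genes, so its reads cannot be assigned to this locus with certainty. Over 13 alternative settings the 5 genes kept their direction. As both mutant lungs lay on 1 side of both wild-type lungs in each gene, leaving out a lung could not reverse it. Each gene was called in 8 or 9 of the settings. With no filter on low values none was called, and their limma adjusted p lay between 0.222 and 0.24. Both mutant lungs were also lower in the summed heart muscle and lymphocyte marker lists above, and higher in the summed liver list. A link of these lists to the 5 genes was not tested.

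**Figure D1:**
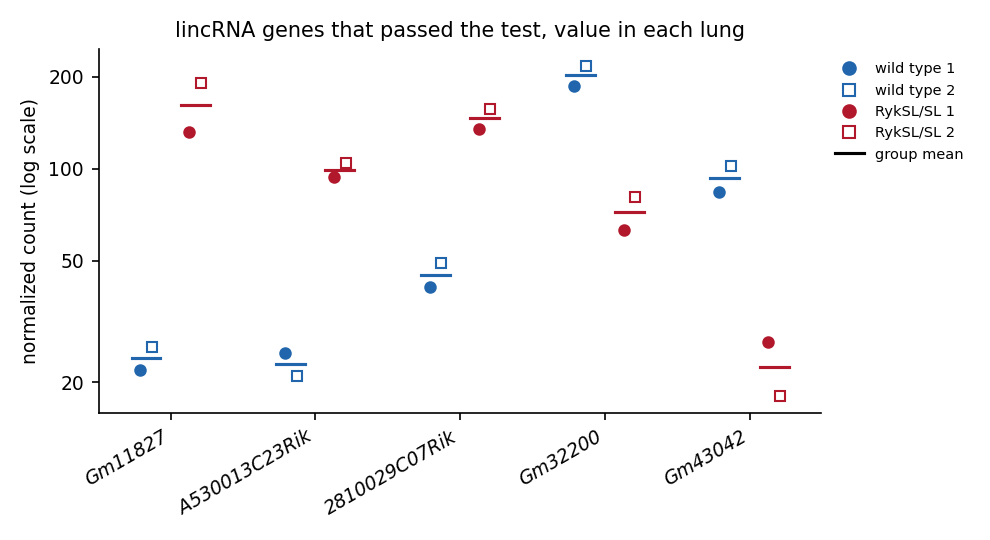
Normalized counts on a log scale of the 5 lincRNA genes that passed the test, 1 point per lung (filled circles lung 1, open squares lung 2; red RykSL/SL, blue wild type), with bars at the group means. In each gene the mutant lungs lie on 1 side of the wild-type lungs, as for A530013C23Rik at 94 and 104 against 25 and 21.

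The median member had a log2 fold change of -0.02 (quartiles -0.44 and 0.29), and that of all genes tested was also -0.02 (quartiles -0.28 and 0.25). Both mutant lungs were above both wild-type lungs for 36 members and below them for 49, or 54.1% without overlap against 52.6% of all genes tested (25.7% above and 26.9% below). At an unadjusted p under 0.05 there were 39 members, 24.8% against 20.1% of all genes. A log2 fold change of at least 1 in size was reached by 17 members (10.8%, against 7.64% of all genes). Members that entered through 1 genotype had to differ. Among the 128 members with a mean of at least 50 in both genotypes, the share without overlap was 47.7%. Their share at an unadjusted limma p under 0.05 was 17.97% (23 members). A log2 fold change of at least 1 in size was reached by 5.47% (7 members). Each share was below that of all genes. Requiring 50 in both genotypes removes members that differ, and all genes had no such filter, so the lower shares were in part built in. Autosomal protein-coding genes with the same minimum mean of 50 numbered 12374, of which 227 were higher and 139 lower (2.96%). They were not matched in level: their median mean was 536, against 114 for the members. Of 102 antisense genes 2 were lower, and of 92 processed transcripts 2 were higher and 1 lower. Among autosomal lincRNA genes with a mean of 10 to under 50, 1 of 283 was called.

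**Figure D2:**
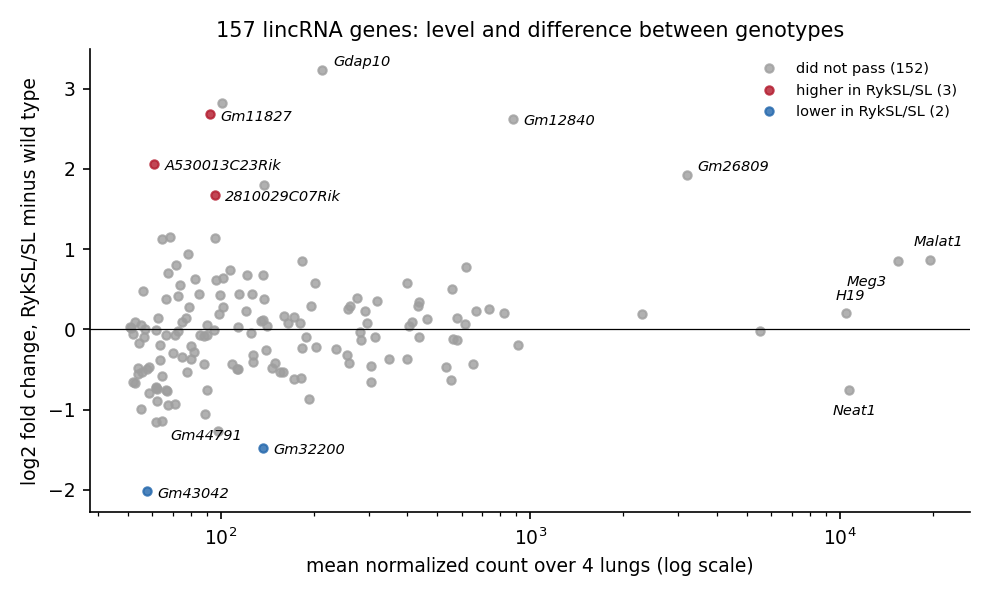
Mean normalized count over the 4 lungs (log scale) against the log2 fold change of RykSL/SL minus wild type, 1 point per lincRNA gene. The 3 genes higher (red) and 2 lower (blue) in the mutant lie below a mean of 150, while Gdap10, Gm12840 and Gm26809 have fold changes of similar size and did not pass.

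A few genes carried most of the lincRNA signal. Only 7 members had a mean of 1000 or more and 72 had a mean under 100. Mean normalized counts per kilobase of annotated exon are given for H19, Malat1, Meg3, 1700020I14Rik and Neat1 only. Among these, H19 (4245) and Malat1 (2799) were highest, with Meg3 at 854, 1700020I14Rik at 667 and Neat1 at 517. The other members are not ranked by this value here, and shorter ones can lie above Meg3. The divisor holds all annotated exon bases of a gene, so the value is too low where mainly a shorter transcript was counted. The library kit selects poly(A) RNA, so transcripts without a poly(A) tail can be undercounted. Malat1 and Meg3 together held 42.2% and 42.3% of the members' summed count in mutant lungs 1 and 2 and 28.3% and 30.9% in wild-type lungs 1 and 2. The summed members made up 0.444% and 0.644% of the library total in the mutant lungs against 0.455% and 0.431% in the wild-type pair. Mutant lung 2 was the high one, and mutant lung 1 lay between the wild-type lungs (difference of means 0.101 percentage points, two-sided exact permutation p = 0.667; 2 against 2 cannot go below 0.333). Without Malat1 and Meg3 the shares were 0.257% and 0.372% against 0.327% and 0.298%.

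Malat1 (chr19:5795690-5802672, minus strand), an abundant nuclear-speckle RNA, had 17857 and 33420 normalized counts in mutant lungs 1 and 2, against 13241 and 13663 in wild-type lungs 1 and 2. Both mutant lungs were higher, but they differed from each other by more than lung 1 differed from the wild type (log2 fold change 0.86, SE 0.31, limma adjusted p = 0.208). Neat1 (chr19:5824708-5845478, minus strand), the scaffold of paraspeckles and a neighbour of Malat1, stood at 4803 and 12146 in the mutant against 14499 and 11497 in the wild type. Here mutant lung 1 alone was low, and mutant lung 2 lay between the wild-type lungs (log2 fold change -0.76, SE 0.42, limma adjusted p = 0.374). None of 15 tested paraspeckle protein genes passed (median log2 fold change 0.05). Of the 10 tested genes of nuclear-body and other abundant non-coding RNAs, 5 of them members, none passed either; their median was 0.14. Besides Malat1, Meg3 and Neat1, these members were 1700020I14Rik and Gm26917. 1700020I14Rik, the mouse gene of the conserved RNA Cyrano, was nearly flat at 5187, 5799, 5572 and 5604 (log2 fold change -0.03). Gm26917 had 428, 525, 367 and 409 (0.29).

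Among imprinted genes, Meg3 (chr12:109541001-109571726, plus strand), expressed from the maternal allele of the Dlk1-Dio3 domain, had 18783 and 20963 in the mutant against 10874 and 11206 in the wild type. The lungs of each genotype were close together and the groups did not overlap, yet the gene missed the threshold (log2 fold change 0.85, SE 0.17, limma adjusted p = 0.0683). With array weights the limma adjusted p was 0.0299, but 871 of all genes were called there, against 440 in the main fit. Mirg, a microRNA host of the same domain, had 120 and 393 in the mutant against 136 and 156, so lung 2 alone was high (0.57, adjusted p = 0.584). Rian, the small nucleolar RNA host between them, which is not annotated as a lincRNA here, had 6655 and 8111 against 4678 and 3975 (0.77, adjusted p = 0.091). Dlk1, the paternally expressed coding gene of the domain, had 7743 and 2025 against 2931 and 2784 and was high in mutant lung 1 only.

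H19, the maternally expressed partner of the growth factor gene Igf2, had 9348 and 13155 in the mutant against 10429 and 8838 in the wild type, and the groups overlapped (0.21, adjusted p = 0.642). Igf2 differed by 0.22. None of the 10 tested genes of the list of imprinted non-coding genes passed, 3 of them members, with a median log2 fold change of 0.66. Rtl1, which is protein-coding in the deposited table, stood on that list, and the median of the other 9 was 0.57. Of 19 tested imprinted coding genes, Zim1 (1.26, adjusted p = 0.046) and Gnas (1.17, adjusted p = 0.027) were higher and none was lower, with a median of -0.08.

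The remaining abundant members gave no call. Gm37494 had 1961 and 2981 in the mutant against 2108 and 2130 in the wild type (0.19). 1810058I24Rik had 976 and 733 against 966 and 980 (-0.20), and Gm28933 had 1005 and 761 against 782 and 744 (0.20). In each of these 3 genes 1 mutant lung lay close to the wild type.

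**Figure D3:**
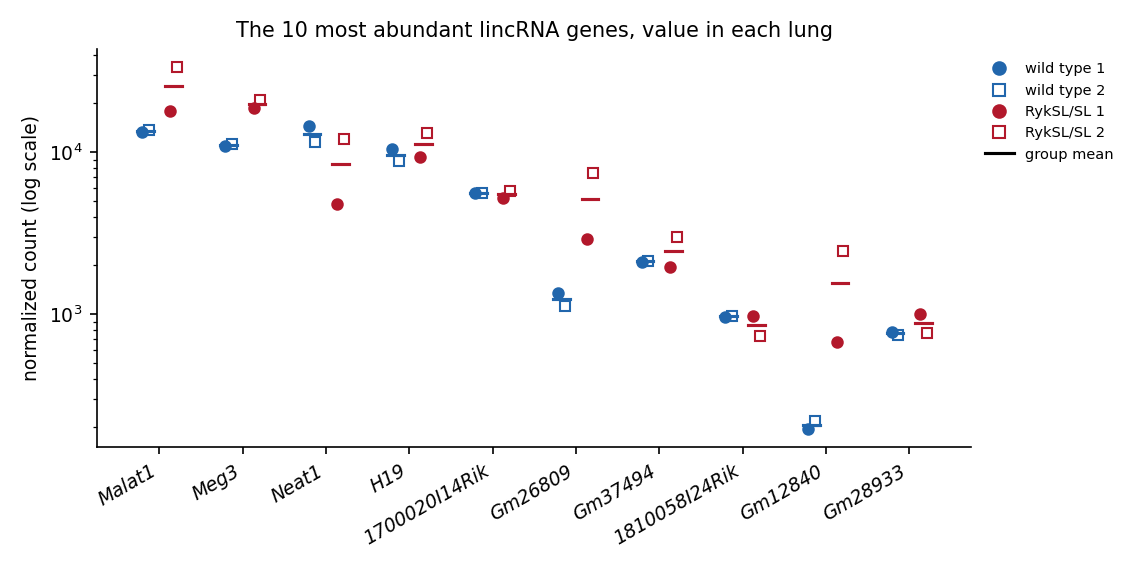
Normalized counts on a log scale of the 10 lincRNA genes with the highest mean, 1 point per lung, with bars at the group means. The wild-type lungs lie close together in most genes, whereas the mutant lungs are apart in Malat1 (17857 and 33420), Neat1 (4803 and 12146), Gm26809 and Gm12840.

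Host genes of small RNAs did not pass the test. Of 15 tested small nucleolar RNA hosts, whose introns release the RNAs that guide ribosomal RNA modification, none passed (median log2 fold change 0.23); 5 were members. Snhg6 had 477 and 853 in the mutant against 486 and 416 in the wild type (0.50), and Snhg12 had 250 and 382 against 220 and 251 (0.39). Epb41l4aos had 268 and 368 against 261 and 275 (0.23). In these 3, mutant lung 2 was the highest of the 4 lungs. Snhg18 had 625 and 484 against 835 and 665 (-0.44), and Snhg20 216 and 213 against 255 and 256 (-0.25), so both mutant lungs were below the wild-type lungs in these. Of the 14 tested genes of nonsense-mediated decay, the pathway that degrades many such spliced host transcripts, none passed (median 0.15).

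Of 8 tested genes listed as microRNA hosts none passed (median 0.43); 4 were members. Mir17hg, host of the miR-17 cluster, had 215 and 369 in the mutant against 244 and 217 in the wild type (0.29). Carmn, a smooth-muscle RNA next to the miR-143 and miR-145 genes, had 140 and 93 against 59 and 93 (0.62). Mirt1 had 48 and 86 against 95 and 71 (-0.35), and Mirg is given above. The groups overlapped or touched in all 4. Among 6 tested developmental non-coding genes, none passed (median -0.23), and the single member, Bvht, a cardiac lineage RNA, had 259 and 281 against 293 and 298 (-0.13).

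Several members combined a large fold change with mutant lungs far apart, and missed the threshold. Gdap10 (chr12:32821872-32826904, plus strand) had 161 and 625 in the mutant against 33 and 33 in the wild type (log2 fold change 3.23, SE 0.59, limma adjusted p = 0.0571; 0.00299 with array weights). Gm29371 had 89 and 272 against 25 and 18 (2.82, adjusted p = 0.0598; 0.00791 with array weights). Gm15889 had 157 and 273 against 47 and 74 (1.79, adjusted p = 0.0653; 0.0313 with array weights). Gdap10 and Gm29371 had a wild-type mean under 50, so they entered the set through the mutant lungs. In each gene both mutant lungs were above both wild-type lungs, and lung 2 was the higher. These genes were singled out after their values were seen, as were the pairs in the following paragraph. Array weights called 871 of all genes, against 440 in the main fit, so lower p-values there were not particular to these genes.

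Gm26809 (chr6:18844220-18847360, plus strand) had 2927 and 7431 in the mutant against 1358 and 1118 in the wild type (1.92, adjusted p = 0.0812; 0.0069 with array weights). Gm12840 (chr4:117700188-117700923, plus strand) had 669 and 2440 against 196 and 218 (2.62, limma adjusted p = 0.078, or 0.0045 with array weights). Without the mean-variance trend the limma adjusted p was 0.157 for Gm26809 and 0.151 for Gm12840. The 2 genes moved alike over the 4 lungs, but they are not independent: 45.8% of the 50-base sequences of Gm12840 occur in transcripts of other genes, chiefly Gm26809, and 36.8% of those of Gm26809 do, chiefly in Gm20186. Gm20186 lies on the opposite strand of the same locus and had 156 and 324 against 143 and 108 (0.85). Likewise Gm26880 (103 and 86 against 41 and 43, 1.15) and RP23-359B23.11 (128 and 135 against 64 and 55, 1.13) both share sequence with Gm43305, 47.4% and 59.0% of their 50-base sequences being found in other genes. Reads of these genes cannot be assigned to single loci with certainty.

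The mutant lungs differed from each other more than the wild-type lungs did. Over the members, the SD of the log2 difference between the lungs was 0.86 in the mutant and 0.28 in the wild type. Over all genes tested it was 0.60 and 0.31. The median absolute difference was 0.43 and 0.17, against 0.32 and 0.13. The members' mutant SD holds Gm44791, at -5.75. In the 128 members with a mean of at least 50 in both genotypes, the mutant SD was 0.66 and the median 0.42. With the same minimum mean, the mutant median was 0.50 in antisense genes and 0.41 in processed transcripts. Mutant lung 2 was higher than mutant lung 1 for 104 members and lower for 51. That is 66.2% higher, against 48.0% of all genes tested. With the same minimum mean, it was 44.8% of protein-coding genes, 68.6% of antisense genes and 64.1% of processed transcripts. The 22 members at least 2-fold apart between the mutant lungs (14.01%, against 8.22% of all genes tested) were higher in lung 2 for 19 and in lung 1 for 3. Between the wild-type lungs 1 member, Ptgs2os2, was that far apart. Against the wild-type mean the median member stood at -0.17 in mutant lung 1 and 0.08 in mutant lung 2, on the log2 scale, where the median of all genes tested was -0.0032 and -0.02. The same medians were -0.17 and 0.17 for antisense genes and -0.22 and 0.0050 for processed transcripts with the same minimum mean. As mutant lung 1 is also the lung with high Xist, sex and individual cannot be told apart here.

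The largest gap was in Gm44791 (chr7:100675088-100677760, plus strand), at 161 in mutant lung 1 and 2 in mutant lung 2, with the wild type between them at 52 and 44. Ptgs2os2 had 15 and 191 against 35 and 17 in the wild type. Ptgs2, the cyclooxygenase gene 50816 bases away, showed the same order, with 52 and 914 against 106 and 67. RP24-491F15.1, 199359 bases from the homeobox gene Irx5, had 34 and 317 against 217 and 120, so the mutant lungs lay on either side of both wild-type lungs. Gm15675 had 329 and 1363 against 377 and 406, again with mutant lung 2 alone high. In contrast, AW112010 had 83 in both mutant lungs (65 and 59 in the wild type) and 4632404H12Rik had 127 in both (151 and 192).

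**Figure D4:**
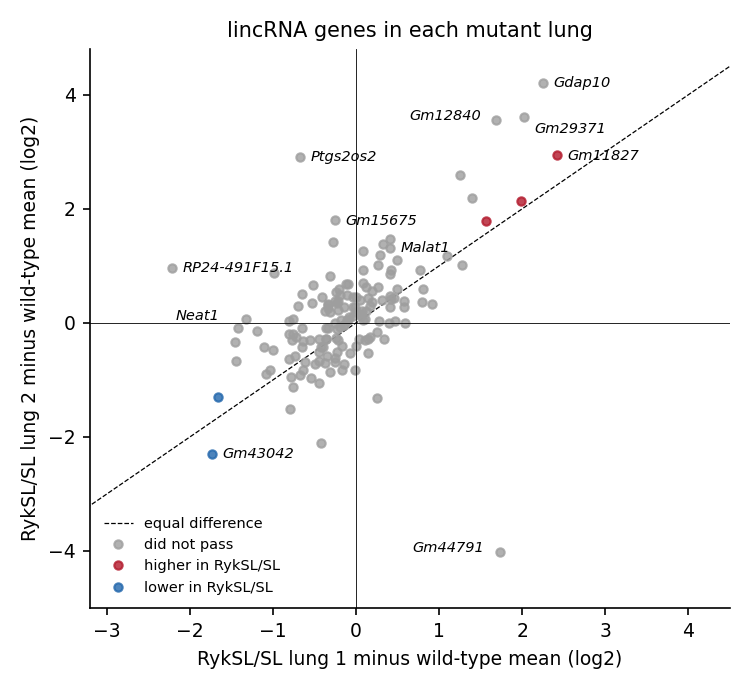
Log2 difference of each mutant lung from the wild-type mean, lung 1 on the horizontal and lung 2 on the vertical axis, 1 point per lincRNA gene; both axes share the same wild-type mean. Points on the dashed line have equal differences; the genes that passed (red and blue) have the same sign in both lungs, and Gm44791, Ptgs2os2 and RP24-491F15.1 lie far from the line.

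The members lie close to protein-coding genes. The nearest coding gene overlapped 34 of them, was within 1000 bases for 62 and within 5000 bases for 93 of the 157, at a median of 2674 bases. In 43 the gene pair was divergent, with starts facing away from each other, in 22 convergent, and in 29 each the lincRNA lay upstream or downstream of the coding gene on the same strand. Over 135 members with a tested neighbour, the log2 fold changes of lincRNA and neighbour had a Pearson r of 0.49 and a Spearman rho of 0.44 and the same sign in 88. For neighbours within 5000 bases (85 pairs) r was 0.42, and beyond that (50 pairs) it was 0.58. Among 71 pairs in which the lincRNA had no exon overlap and at most 10% shared sequence, r was 0.54. These are correlations across genes measured in the same 4 libraries, and genes are not independent replicates.

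Of 128 different tested neighbours, 6 were higher and 1 was lower in the mutant (5.47%). The share was 2.39% of all genes tested and 2.96% of autosomal protein-coding genes with a mean of at least 50. Among the higher ones, Trp53inp1, Mark3 and Nampt lie beside members that entered the set through the mutant lungs. Trp53inp1, a stress-induced target of p53 that lies 29433 bases downstream of Gm11827, had 9398 and 12712 in the mutant against 2519 and 2757 in the wild type (log2 fold change 2.05, limma adjusted p = 0.0109; 2.68 for Gm11827). Mark3, a microtubule-affinity regulating kinase gene that starts 108 bases from 2810029C07Rik, had 3233 and 4478 against 1484 and 1573 (1.32, adjusted p = 0.0315; 1.68 for the lincRNA). The 107 capitals printed above lie between these starts and hold a CCAAT motif 45 bases before the lincRNA start. In both pairs both mutant lungs were above both wild-type lungs, for the lincRNA and for its neighbour.

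Neighbours of members that missed the threshold passed as well, and 3 such pairs follow. Nampt, the enzyme gene of NAD salvage, contains Gdap10 on the same strand without shared exon bases, and had 3451 and 5687 in the mutant against 1231 and 1240 in the wild type (1.84, adjusted p = 0.0267). As Gdap10 lies inside Nampt, the part of Nampt RNA in the Gdap10 counts was not tested. Herpud1, an endoplasmic reticulum stress gene 6121 bases downstream of Gm15889, had 4540 and 4500 against 1492 and 1574 (1.56, adjusted p = 0.0107). The lower neighbour was Shh, the Sonic hedgehog ligand made by lung epithelium, with 303 and 285 against 665 and 605 (-1.11, adjusted p = 0.0289). Gm26894, which starts within Shh on the opposite strand and overlaps exons by 361 bases, had 45 and 52 against 89 and 98 (-0.93, adjusted p = 0.112). With the strand setting unknown, reads of the overlapping bases cannot be told apart.

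Other pairs did not move together. Cebpb, a transcription factor gene that ends 759 bases before A530013C23Rik, was flat at 336 and 400 in the mutant against 346 and 375 in the wild type (0.03), whereas the lincRNA differed by 2.06. Ppp2r5a, a phosphatase subunit gene 33068 bases from Gm32200, differed by -0.01, and Pcdh7, a protocadherin gene 1436472 bases from Gm43042, by -0.50; neither passed. Conversely Slc13a4, a sulfate transporter gene (154 and 84 against 21 and 16, 2.57, adjusted p = 0.0315), and Fsd2 (202 and 218 against 68 and 78, 1.51, adjusted p = 0.0266) were higher while their lincRNAs 1810058I24Rik and 2900076A07Rik differed by -0.20 and 0.17.

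The next 3 neighbours were picked after their values were seen, as known genes of lung development, and do not stand for such genes in general. Foxa2, a transcription factor gene of lung epithelium, had 561 and 499 in the mutant against 839 and 885 in the wild type, and 9030622O22Rik, 2674 bases away, had 57 and 42 against 85 and 82; neither passed (-0.70 and -0.76, adjusted p = 0.075 and 0.193). Fzd7, a Wnt receptor gene, had 792 and 427 against 1107 and 1229, and Gm26813 beside it had 103 and 34 against 81 and 92. Tbx5 differed by 0.02, while its neighbours Gm43050 (155 and 132 against 231 and 206) and 1700021F13Rik (46 and 39 against 83 and 66) differed by -0.61 and -0.79 without passing.

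**Figure D5:**
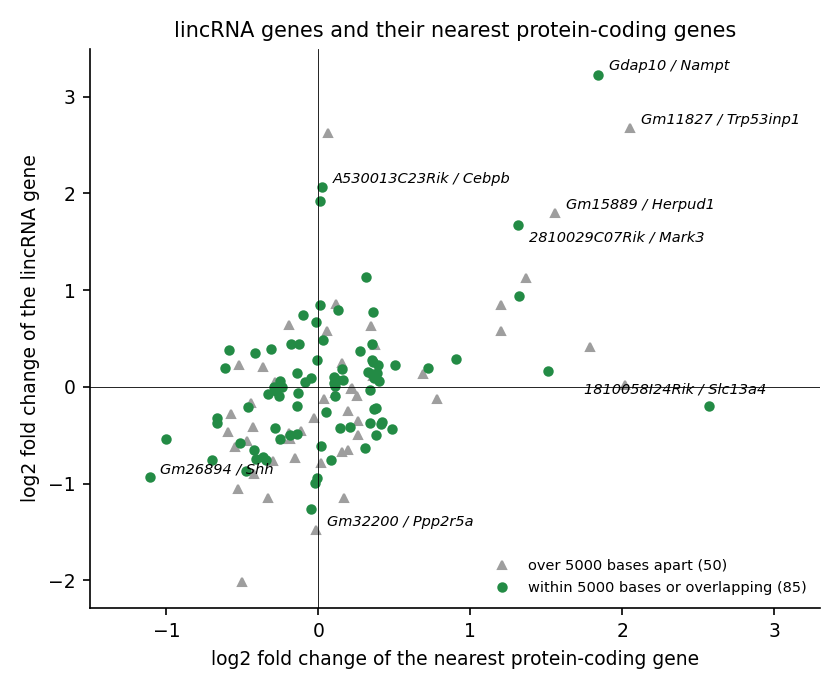
Log2 fold change (RykSL/SL minus wild type) of each lincRNA gene against that of its nearest protein-coding gene, for 135 pairs (circles within 5000 bases or overlapping, triangles farther apart). Gdap10 with Nampt and Gm11827 with Trp53inp1 lie at the upper right, Gm26894 with Shh at the lower left, and A530013C23Rik with Cebpb is high on the lincRNA axis only.

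RefSeq promoter windows were matched to 80 members, 54 of them with a start within 100 bases of the deposited one. The median ratio of observed to expected CpG was 0.63, against 0.38 over all 32851 promoters of the table. The members were chosen by level and those promoters were not, and the part of level in this difference was not tested. Motifs were searched on both strands and are descriptions of letters only. CCAAT was found in 31.3% of the member promoters (37.4% of all) and TATAAA in 12.5% (13.6%). The AP-1 letters TGANTCA were in 8.75% (7.81%), the E-box CACGTG in 7.5% (7.15%), and the cyclic AMP response letters TGACGTCA in 5.0% (1.79%; Meg3 among them). The AP-1 and cyclic AMP response letters do not contain each other.

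The annotation of the members was checked in GENCODE M21, which held 154 of them, 132 with the same start. Of these, 134 were still lincRNA, 8 had become antisense, 6 processed transcripts, 3 bidirectional promoter RNAs, 2 protein-coding (6330403K07Rik and 6030408B16Rik) and 1 a pseudogene. The median exonic length was 2468 bases (430 to 20771), and 20 genes had 1 exon. Exons of another gene overlapped on the same strand in 17 members and on the opposite strand in 50, and 45 members had over 10% of their 50-base sequences in other genes, 14 of them over 50%. Among the 82 members free of overlap and such sharing, 3 were higher and 1 lower (4.88%, against 2.39% of all genes tested). The 3 higher genes had a wild-type mean under 50 and entered through the mutant lungs, so this share is in part a product of the selection. Just inside the mean of 50 were D730003I15Rik (51.0), Gm37276 (51.3) and Gm14319 (52.0), and just outside it F420014N23Rik (49.8), 1200007C13Rik (49.3) and AU022754 (49.3).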

How the data were processed

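Per the labels' protocols, total RNA (3 micrograms) of single mice went into a strand-marking poly(A) library kit, TruSeq Stranded mRNA. The submitters' processing notes name FastQC, STAR 2.4.0a, featureCounts 1.5.1 (Subread), DESeq2 1.14.1, mm10 and GRCm38. The sources used here do not say how strand and multiply aligned reads were counted. The values the authors deposited are treated as a score: whole numbers named as normalized counts, scaled and rounded, from which raw counts were not recovered. No count model was therefore run, and values below 10 carry large counting error.

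Members and lists were chosen with earlier results of these data known. Genotypes were compared with limma 3.58.1 (R 4.3.3, trend fitted, pseudocount 1, log2 scale, two-sided) for all 18436 genes whose mean reached 10, and p-values were adjusted by Benjamini-Hochberg over all of them. The pseudocount makes log2 differences of low genes too small. The script was tested on simulated data. The labels give 2 mice per genotype. The p-values rest on the spread between these mice, which limma pools in part over all genes tested, not on each gene's own spread alone. Named were Ryk, every called member, the 10 most abundant members, members on the lists, those next to the mean of 50, those with the largest and smallest gap between mutant lungs, and the nearest coding gene of each called member. Other genes were named after their values were seen. Nearest coding genes, their distances and their orientation came from the deposited gene coordinates. Exon overlaps and shared 50-base sequences came from GENCODE M21. Alternatives covered pseudocount, filter, scaling, trend, array weights, replicate block, each replicate left out and the choice of members.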

Additional observations from a re-analysis of the deposited data

How the results depend on the processing

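With 2 lungs per genotype the number of calls depended on the fit. The main result was 3 lincRNA genes higher and 2 lower, 5 in all. With no filter on low values the counts were 0 higher, 0 lower and 0 in all, with 38 members at an unadjusted limma p under 0.05. Over all genes 0 were called there as well. Without the mean-variance trend 0 were lower and 2 were called in all, beside 72 of all genes. With array weights 9 were higher and 11 called in all, beside 871 of all genes. Labels number the mice 1 and 2 in both genotypes, but same-numbered lungs did not deviate together (r = -0.06 over 18436 genes). With 1 difference per genotype, this cannot tell whether same-numbered mice share a litter, which the labels do not give. With the replicate block 8 were higher and 10 called in all, beside 766 of all genes. The calls added by the block were Gdap10, Gm29371, Gm15889, Gm12840 and Gm26809, and array weights added these and Meg3. Leaving out each replicate gave 0 to 16 higher, 0 to 8 lower and 0 to 24 in all. Members with a mean of at least 100 gave 0 higher, 1 lower and 1 in all, and members free of overlap and shared sequence 1 lower, both being smaller sets. Pseudocounts of 0.5 and 5, equal totals, quantile normalization and a filter at 50 kept all 5 genes. The median log2 fold change stayed within the spread between the mutant lungs in every alternative, between -0.17 and 0.08 with a replicate left out. Over all genes 0 to 2385 were called.

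Some log2 fold changes changed sign, and the cause was not tested. With libraries scaled to the same total, Cebpb stood at -0.0533, D730003I15Rik at -0.0538 and Gm37276 at -0.0625. The ranges that follow are the lowest and highest value with 1 replicate left out. Leaving out mutant replicate 1 turned 1700020I14Rik (-0.107 to 0.0535), Gm28933 (-0.00334 to 0.397) and Mirt1 (-0.763 to 0.0655). Leaving out mutant replicate 2 turned 1810058I24Rik (-0.408 to 0.00447), Gm37494 (-0.112 to 0.492), Gm44791 (-4.02 to 1.73), H19 (-0.0385 to 0.454), Mir17hg (-0.0975 to 0.679), Mirg (-0.277 to 1.43) and Ryk (-0.198 to 0.126). Leaving out mutant replicate 2 or wild-type replicate 1 turned Cebpb (-0.100 to 0.151) and Gm37276 (-0.0963 to 0.126). Leaving out mutant replicate 2 or wild-type replicate 2 turned D730003I15Rik (-0.407 to 0.454) and Ppp2r5a (-0.0988 to 0.0735).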
